A study of Homo sapiens with 6 samples.

Results

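Aminoacyl-tRNA synthetases are the enzymes that join each amino acid to its transfer RNA. The 36 synthetase genes described here, of 35052 genes with a transcript in the tables, were taken by gene symbol. No measured value set the membership, but the members, lists and tests were chosen with earlier results of these data known. Of the 36 genes, 20 encode the cytosolic enzymes (symbols ending in 1, with FARSA, FARSB and TARS3) and 16 the mitochondrial enzymes (symbols ending in 2). All 36 passed the filter on low counts, VARS2 only through its reads in the knockout libraries. EoL-1 is a line of human eosinophilic leukaemia cells, which the labels class as eosinophils. In this study 3 libraries of wild-type EoL-1 cells were compared with 3 libraries of EoL-1 cells in which ATF3 had been knocked out with CRISPR/Cas9. The design text of the series calls the edited cells a knockdown. No other treatment is labelled in either group, and all cells grew in the same serum-containing medium. The labels do not say whether the replicates were separate cultures or edited clones, so the p-values cover only the spread among these samples, and that spread may be technical.

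Cytosolic synthetases supply the ribosomes of the cytoplasm, and several of them sit in a multisynthetase complex held together by the scaffold proteins AIMP1, AIMP2 and EEF1E1. The mitochondrial enzymes are made from separate nuclear genes for most amino acids and serve the small set of proteins translated inside mitochondria. GARS1 and KARS1 are exceptions, since each encodes both the cytosolic and the mitochondrial enzyme. Many cytosolic synthetase genes are known targets of ATF4, the transcription factor of the amino acid response, which binds as a heterodimer with C/EBP proteins to a composite DNA element. ATF3, a related bZIP factor induced in the same response, is the gene edited in this study.

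The libraries held 26766103 to 30117281 estimated reads. ATF3 mRNA fell but was not absent, from a wild-type mean of 20.7 ± 3.88 to 6.16 ± 1.96 CPM (SD, n = 3 each), with a log2 fold change of -1.75 (SE 0.25) and an edgeR adjusted p of 0.0098. CPM are read counts per library total scaled by TMM factors, and each fold change is the knockout over the wild-type level as a log2 value. Gene coordinates are those of GENCODE 29 on GRCh38. Of 12 eosinophil markers, PRG3, CLC, IL5RA and GATA1 were at 0 reads in every library and EPX had 2 reads in all, while RNASE2 and RNASE3 were present. The summed level of the 12 ranged from 37.3 to 52.6 CPM in wild type and from 118 to 184 CPM in knockout. Most of it was RNASE2, at 29.4 to 40.9 CPM in wild type and 93.2 to 152 CPM in knockout, with RNASE3 next. SIGLEC8, CCR3 and ALOX15 were near 0 in both groups, so the sum does not describe the list as a whole. A list of 8 neutrophil and granule markers, with ELANE, PRTN3, AZU1 and FCGR3B at 0, summed to 86.0 to 93.4 CPM in wild type and 160.1 to 169.8 CPM in knockout. A list of monocyte and macrophage markers summed to 166 to 417 CPM in wild type and 610 to 922 CPM in knockout. Of the monocyte and macrophage markers 6 were tested and 2 called higher. For the eosinophil list 3 were tested and 3 called higher, and for the neutrophil and granule list 3 and 1. Of all genes tested 11.4% were called higher. The part of these marker shifts in the results below was not tested. Wild-type replicate 2 stood apart from the other wild-type libraries on the first principal component of all genes (42.1% of the variance), at -13.5 against -37.9 and -34.9, with the knockout libraries at 29.8, 35.5 and 21.0.

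The promoters of the cytosolic genes are shown first, because 13 of these 20 genes fell and the composite element is short enough to be read in the sequence. Windows from 250 bases before to 50 bases after the RefSeq start (GRCh38.p14) were found for 30 of the 36 genes, 16 cytosolic and 14 mitochondrial. No window was found for AARS2, LARS1, TARS3, VARS1, VARS2 and YARS1. Both strands were searched for TGATGNAA, the core of the C/EBP-ATF element, for its form TGATGCAA, which is contained in the first, and for TGACGTCA, the cyclic AMP response element to which ATF3 dimers can bind. The 8 matches to TGATGNAA are given 5′ to 3′ on the strand of the gene, with the match in capitals (TTGCATCA is TGATGCAA read from the other strand, and TTTCATCA is likewise a match to TGATGNAA).
TARS1: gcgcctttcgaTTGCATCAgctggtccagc
MARS1: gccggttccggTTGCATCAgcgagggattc
IARS1: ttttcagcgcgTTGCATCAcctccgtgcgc
CARS1: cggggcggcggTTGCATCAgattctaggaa
AARS1: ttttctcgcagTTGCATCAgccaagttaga
NARS1: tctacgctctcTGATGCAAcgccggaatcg
GARS1: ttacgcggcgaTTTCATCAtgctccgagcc
YARS2: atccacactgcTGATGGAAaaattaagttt

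These stretches lie at chr5:33440956-33440985 (TARS1, plus strand), chr12:57488053-57488082 (MARS1, plus), chr9:92293692-92293721 (IARS1, minus), chr11:3057407-3057436 (CARS1, minus) and chr16:70289675-70289704 (AARS1, minus). The others lie at chr18:57621804-57621833 (NARS1, minus), chr7:30594834-30594863 (GARS1, plus) and chr12:32756076-32756105 (YARS2, minus). In TARS1, MARS1, IARS1, CARS1 and NARS1 the first base of the match stood between 13 bases before the start (position -13, IARS1) and position 15 (NARS1). Position 1 is the first base of the RefSeq transcript. The other matches began further upstream, at -33 in GARS1, -187 in AARS1 and -197 in YARS2. The 30 genes had 39 windows, and a gene was counted once where any of its windows held a match. TGATGNAA was found for 7 of the 16 cytosolic genes (43.8%) and 1 of the 14 mitochondrial genes (7.14%), against 4.46% of the 27305 genes with a window and 2.76% of the 9878 of those that were tested. TGATGCAA was found for 6 of 16 cytosolic and 0 of 14 mitochondrial genes, against 1.08% of genes with a window and 0.769% of those tested. TGACGTCA was found for none of the 30 genes, against 2.25% of genes with a window and 3.66% of those tested. Counted by window, the shares over all 35116 windows of this length were 3.62%, 0.866% and 1.85%. Among the 999 genes with a window that were tested and called lower, TGATGNAA was found for 4.90% and TGATGCAA for 2.50%. Of the 7 cytosolic genes with TGATGNAA, 6 were called lower in knockout, CARS1 being the exception. This stands beside 11 called lower of all 16 cytosolic genes with a window, and 9.72% of all genes tested. The 11 cytosolic genes that were called lower and had a window included 5 without these letters. Of the 5 cytosolic genes with a window that were not called, 1 held them. A match is a description of the letters and does not show that a factor binds there.

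Most cytosolic synthetase mRNAs fell in the ATF3 knockout libraries, and most mitochondrial ones did not change beyond their spread. Of the 20 cytosolic genes 13 were called lower and 0 higher by edgeR's quasi-likelihood test at an adjusted p under 0.05, where 9.72% of all 13131 genes tested were called lower and 11.4% higher. The median log2 fold change was -0.51 for the cytosolic genes and 0.01 for all genes tested. The 13 called genes fell to between 53.6% (WARS1) and 85.6% (KARS1) of their wild-type level. Every wild-type library lay above every knockout library in 13 of the 20 cytosolic genes, the same 13 that were called. This held for 21.4% of all genes tested (the groups were apart in either direction in 43.5%). In the other 7 cytosolic genes the groups overlapped. In bulk RNA such as this, less of an mRNA in every cell and fewer cells that hold it cannot be told apart. Of the 16 mitochondrial genes 1 was called lower and 2 higher, with a median log2 fold change of 0.00 (-0.04 without VARS2).

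**Figure D1:**
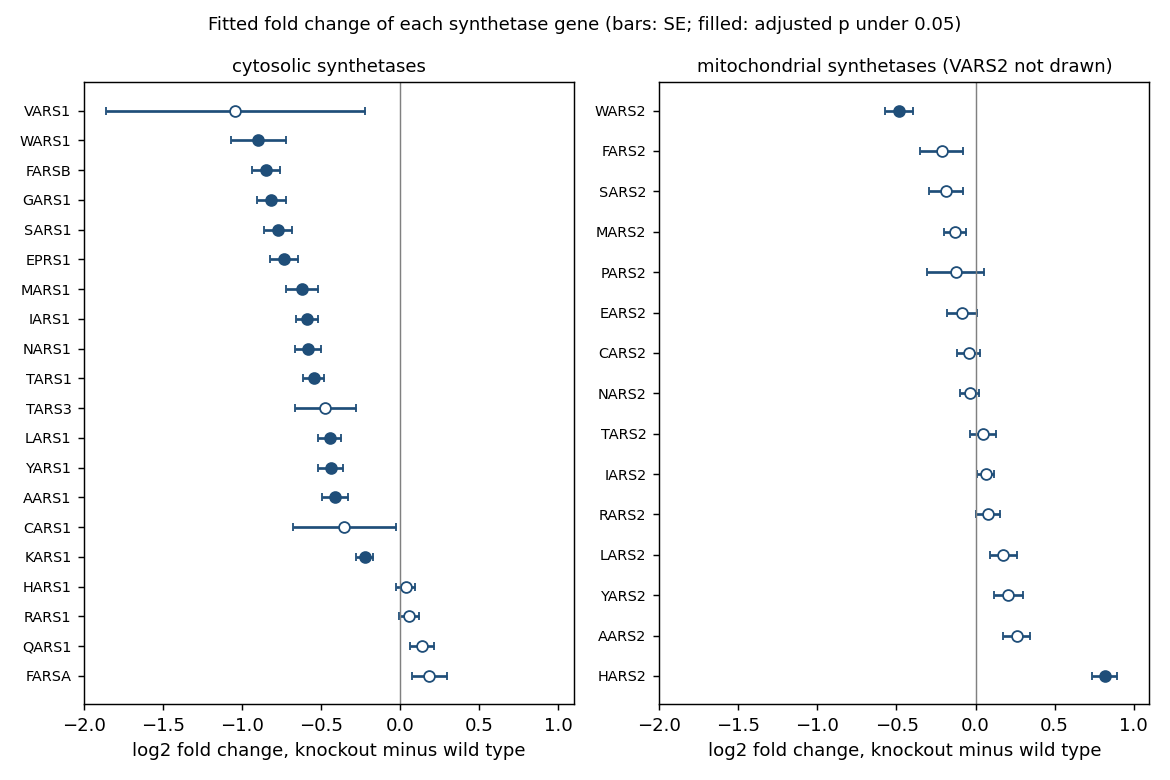
Fitted log2 fold change (knockout minus wild type, x axis) with its SE for each gene, cytosolic on the left and mitochondrial on the right, filled where the edgeR adjusted p was under 0.05. The 13 called cytosolic genes lie between -0.90 and -0.22, while 13 of the 15 mitochondrial genes drawn are uncalled and lie between -0.22 and 0.26.

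The calls depended on which library was left out. Without wild-type replicate 1, edgeR called 0 of the 20 cytosolic genes and 0 of 13385 genes in all (smallest adjusted p 0.0503), although 13 cytosolic genes were lower at an unadjusted p under 0.05 and the cytosolic median was -0.44. Without wild-type replicate 3 it called 7 cytosolic genes, and WARS1, MARS1, LARS1, YARS1, AARS1 and KARS1 were the 6 no longer called. Without wild-type replicate 2 it called 14, the 13 and CARS1, with a median of -0.60. Without knockout replicate 1 the calls of AARS1 and KARS1 were lost, and without knockout replicate 2 that of KARS1. None of the 16 called synthetase genes changed sign in any of the alternatives run. In each of the 16 the groups were apart, so leaving a library out could hardly reverse the sign. DESeq2 and limma-voom on all 6 libraries each called the same 13 cytosolic genes.

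The largest fall among called members was in WARS1, the tryptophanyl enzyme, which interferon is also known to induce. WARS1 (chromosome 14, 100333788 to 100376805, minus strand) stood at 769, 723 and 832 CPM in wild-type replicates 1, 2 and 3 and at 466, 301 and 479 CPM in knockout replicates 1, 2 and 3. The groups were apart, and knockout replicate 2 was the lowest library. The log2 fold change was -0.90 (SE 0.17, edgeR adjusted p = 0.0172), and the adjusted p was 0.072 without wild-type replicate 1 and 0.0686 without wild-type replicate 3. GARS1, which charges glycine in both compartments (chromosome 7, 30594681 to 30634033, plus strand), had 626, 567 and 635 CPM in wild type and 364, 305 and 369 CPM in knockout. It fell by 0.82 (SE 0.09, adjusted p = 0.0081), and wild-type replicate 2 was the lowest wild-type library for both genes.

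SARS1, the seryl enzyme (chromosome 1, 109213918 to 109238169, plus strand), went from 326, 304 and 339 CPM to 201, 166 and 200 CPM. It fell by 0.77 (SE 0.09, edgeR adjusted p = 0.0081), to 58.5% of wild type. The serine it loads is also the starting point for selenocysteine, and PSTK, the kinase that acts next on that transfer RNA, fell by 0.75 (SE 0.13, adjusted p = 0.0126). SEPSECS, which completes the conversion, fell by 0.41 (SE 0.10). NARS1, the asparaginyl enzyme (chromosome 18, 57600656 to 57622213, minus strand), had 485, 457 and 513 CPM in wild type and 348, 295 and 328 CPM in knockout. Its groups were apart, with a log2 fold change of -0.58 (SE 0.08, adjusted p = 0.0093). TARS1 (threonine) fell by 0.55, YARS1 (tyrosine) by 0.44 and AARS1 (alanine) by 0.41. Without wild-type replicate 3 the adjusted p was 0.067 for YARS1 and 0.0718 for AARS1.

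The phenylalanyl enzyme is a tetramer of an alpha subunit, FARSA, and a beta subunit, FARSB, and the mRNAs of these subunits differed in their response. FARSB (chromosome 2, 222570536 to 222656337, minus strand) had 148, 122 and 142 CPM in wild type and 77.9, 70.7 and 79.8 CPM in knockout. It was lower in every knockout library and fell by 0.85 (SE 0.09, edgeR adjusted p = 0.0081). FARSA (chromosome 19, 12922479 to 12934037, minus strand) had 144, 147 and 158 CPM in wild type and 158, 152 and 199 CPM in knockout. Its groups overlapped, with a log2 fold change of 0.18 (SE 0.11, adjusted p = 0.276), and with the GC trend of each library removed this was 0.03. Reads of FARSB per read of FARSA were 1.03, 0.829 and 0.899 in wild type and 0.494, 0.465 and 0.400 in knockout, so the ratio was lower in every knockout library. This ratio was chosen after the values were seen and was not tested.

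**Figure D2:**
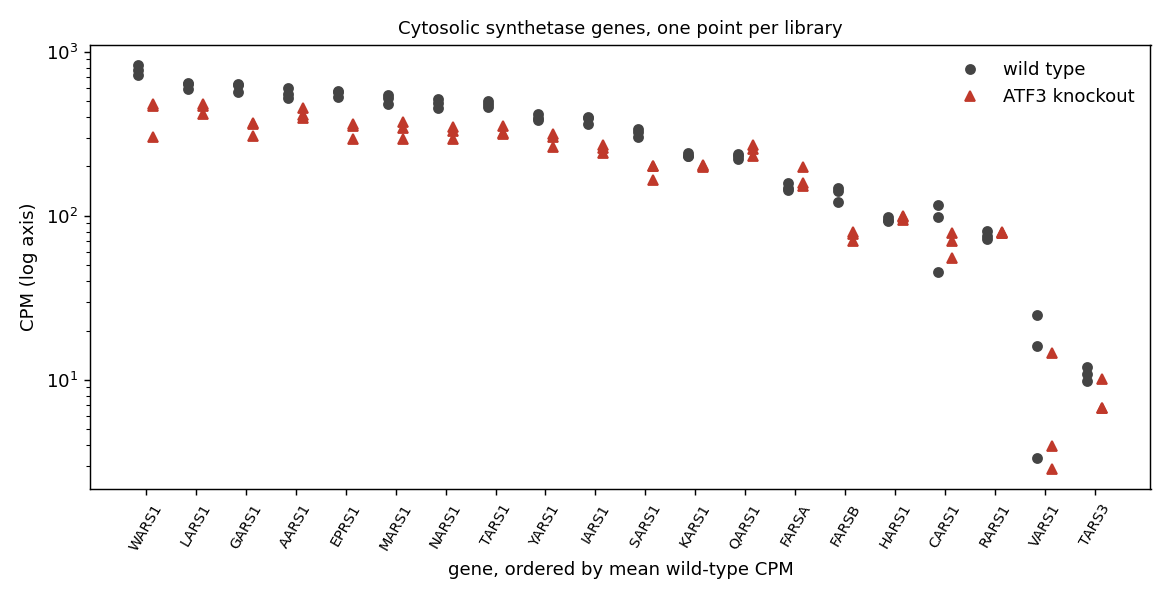
CPM (log axis) of the 20 cytosolic synthetase genes in each library, with genes ordered by mean wild-type CPM, circles for wild type and triangles for ATF3 knockout. The triangles lie below the circles in the 13 called genes, for example 301 to 479 CPM against 723 to 832 CPM in WARS1, and overlap them in QARS1, FARSA, HARS1, CARS1, RARS1, VARS1 and TARS3.

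Of the 7 cytosolic members that belong to the multisynthetase complex, 5 fell (EPRS1, MARS1, IARS1, LARS1 and KARS1) and 2 did not pass (QARS1 and RARS1). Outside the complex 8 of 13 cytosolic genes were called lower, as were 9.72% of all genes tested. The median log2 fold change was -0.45 in the complex and -0.55 for the cytosolic genes outside it. EPRS1, a fused enzyme that charges both glutamate and proline (chromosome 1, 219968601 to 220046658, minus strand), had 568, 533 and 578 CPM in wild type and 361, 352 and 295 CPM in knockout. It fell by 0.74 (SE 0.09, edgeR adjusted p = 0.0081), with knockout replicate 3 the lowest library. MARS1, the methionyl enzyme that also charges initiator transfer RNA (chromosome 12, 57475445 to 57517569, plus strand), had 524, 477 and 547 CPM in wild type and 345, 292 and 371 CPM in knockout. Its groups were apart, with a log2 fold change of -0.62 (SE 0.10, adjusted p = 0.0119, or 0.0544 without wild-type replicate 3).

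MARS1 shares 355 exon bases with DDIT3 on the opposite strand, and DDIT3 itself fell. DDIT3 held 180 to 838 reads per library against 8029 to 15006 of MARS1. MARS1 also shares 519 exon bases on the opposite strand with ARHGAP9, which had wild-type reads of 898, 1100 and 939 and knockout reads of 1623, 1141 and 1397. The MARS1 transcript with most reads, ENST00000262027.10, went from 9545, 8590 and 10282 wild-type reads to 5652, 4979 and 6600 knockout reads. IARS1, the isoleucyl enzyme (chromosome 9, 92210207 to 92293756, minus strand), had 396, 361 and 400 CPM in wild type and 269, 242 and 258 CPM in knockout. It fell by 0.59 (SE 0.07, edgeR adjusted p = 0.0081), but with the average effective length as an offset the adjusted p was 0.064. LARS1, the leucyl enzyme and a leucine sensor for mTORC1, fell by 0.45 (SE 0.07, adjusted p = 0.0118, or 0.0564 without wild-type replicate 3).

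KARS1, the lysyl enzyme of both compartments (chromosome 16, 75627474 to 75648643, minus strand), had the smallest fall among the called genes. It had 231, 233 and 242 CPM in wild type and 199, 201 and 204 CPM in knockout, so the groups were apart by a narrow gap. The log2 fold change was -0.22 (SE 0.05, edgeR adjusted p = 0.0275), and the call was lost when effective length was an offset (adjusted p = 0.171), in the fit with a replicate block (adjusted p = 0.0526) and in 4 of the 6 fits without a library. Its main transcript, ENST00000302445.7, had wild-type reads of 5395, 5693 and 5679 and knockout reads of 4395, 4826 and 5129. A longer protein-coding transcript, ENST00000319410.9, had wild-type reads of 290, 346 and 254 and knockout reads of 135, 190 and 163. Both were lower in every knockout library, and the division of reads between transcripts is an estimate.

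The cytosolic genes that did not fall were QARS1, RARS1 and HARS1 beside FARSA. QARS1, the glutaminyl enzyme, had 222, 231 and 238 CPM in wild type and 257, 232 and 271 CPM in knockout, with a log2 fold change of 0.14 (SE 0.07, edgeR adjusted p = 0.223). RARS1, the arginyl enzyme, had 72.2, 80.7 and 75.6 CPM in wild type and 78.5, 78.2 and 80.3 CPM in knockout (0.05, SE 0.06, adjusted p = 0.593). HARS1, the histidyl enzyme and the cytosolic gene nearest to no change, had 94.9, 99.0 and 92.5 CPM in wild type and 94.2, 99.97 and 99.0 CPM in knockout (0.03, SE 0.06). Groups overlapped in all 3 genes.

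For CARS1 and VARS1 the libraries of a group disagreed too much to give a direction, and TARS3 was not called, with overlapping groups. CARS1, the cysteinyl enzyme, had 98.4, 45.7 and 117 CPM in wild type and 79.2, 55.1 and 70.2 CPM in knockout. Wild-type replicate 2 was the lowest of all 6 libraries, and without it CARS1 had a log2 fold change of -0.66 and passed (edgeR adjusted p = 0.0434). VARS1, the valyl enzyme (chromosome 6, 31777518 to 31795953, minus strand), had wild-type reads of 691, 457 and 92 and knockout reads of 103, 403 and 84, a log2 fold change of -1.04 with an SE of 0.82. TARS3, a second threonyl enzyme with few reads, had a log2 fold change of -0.47 (SE 0.19, adjusted p = 0.124), and it passed without knockout replicate 1 (adjusted p = 0.0438).

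VARS1 and VARS2 both lie in the major histocompatibility region of chromosome 6, for which the reference holds alternative copies. Transcripts that matched no gene and equalled a VARS1 transcript in length held wild-type reads of 600, 250 and 609 and knockout reads of 516, 496 and 794, more than VARS1 itself held in wild-type replicate 3 and in the 3 knockout libraries. Adding them changed the log2 ratio of mean CPM from -1.04 to -0.16. A match by length can include other genes, so these reads are not shown to be VARS1.

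Among the mitochondrial genes, HARS2 rose. HARS2, the mitochondrial histidyl enzyme (chromosome 5, 140691426 to 140699318, plus strand), had 32.1, 35.5 and 29.7 CPM in wild type and 58.4, 55.8 and 57.3 CPM in knockout. Every knockout library was above every wild-type library, as in 22.2% of all genes tested, and the log2 fold change was 0.82 (SE 0.08, edgeR adjusted p = 0.0079). HARS2 stands head to head with HARS1, and their exons share 437 bases on opposite strands, while HARS1 was near 0 change. It also shares 152 exon bases with ZMAT2 on the same strand. The HARS2 transcript with most reads, ENST00000230771.9, had wild-type reads of 574, 591 and 540 and knockout reads of 760, 797 and 788. A further protein-coding transcript, ENST00000642752.1, had wild-type reads of 218, 155 and 0 and knockout reads of 618, 407 and 376.

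WARS2, the mitochondrial tryptophanyl enzyme (chromosome 1, 119031216 to 119140671, minus strand), was the mitochondrial gene called lower. It had 22.2, 21.5 and 20.6 CPM in wild type and 16.0, 15.9 and 14.0 CPM in knockout, a log2 fold change of -0.48 (SE 0.09, edgeR adjusted p = 0.0149). With the effective length offset the adjusted p was 0.120, and without wild-type replicate 3 it was 0.058. VARS2 (chromosome 6, 30908242 to 30926459, plus strand) had wild-type reads of 0, 0 and 5 and knockout reads of 118, 82 and 163 and was called higher. It passed the low-count filter only through the knockout libraries, the group in which it is high. Its fitted log2 fold change of 6.08 (SE 0.82) rests on 5 wild-type reads in 1 library, and became 9.92 without that library, when no wild-type read was left. Without wild-type replicate 1 its adjusted p was 0.051. Unmatched transcripts equal in length to a VARS2 transcript held 4.66 reads in wild-type replicate 3, 55.6 in knockout replicate 1 and 0 elsewhere, and adding them changed the log2 ratio of mean CPM from 6.17 to 5.44, with the groups still apart. GTF2H4, whose exons overlap those of VARS2 by 1858 bases in the same orientation, was at 0 reads in all 6 libraries. It lies in the same histocompatibility region, and reads of unmatched transcripts were left out, so this 0 does not show that GTF2H4 was silent. A match by length also misses copies of another length, so the VARS2 counts remain uncertain.

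The other 13 mitochondrial genes were not called, and their log2 fold changes ran from -0.22 (FARS2) to 0.26 (AARS2). SARS2, which had the highest wild-type TPM of the mitochondrial genes over all transcripts, had 45.2, 50.3 and 49.1 CPM in wild type and 45.6, 45.3 and 36.2 CPM in knockout (-0.19, SE 0.11, edgeR adjusted p = 0.242). NARS2, the gene nearest to no change, had 32.0, 33.3 and 32.9 CPM in wild type and 32.6, 31.6 and 31.5 CPM in knockout (-0.04, SE 0.06). AARS2 and YARS2 were higher in every knockout library without passing the test (0.26 with adjusted p = 0.0721, and 0.21 with adjusted p = 0.156). IARS2, LARS2, RARS2 and TARS2 had fold changes between 0.05 and 0.18, and CARS2, EARS2, PARS2 and MARS2 between -0.13 and -0.04.

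**Figure D3:**
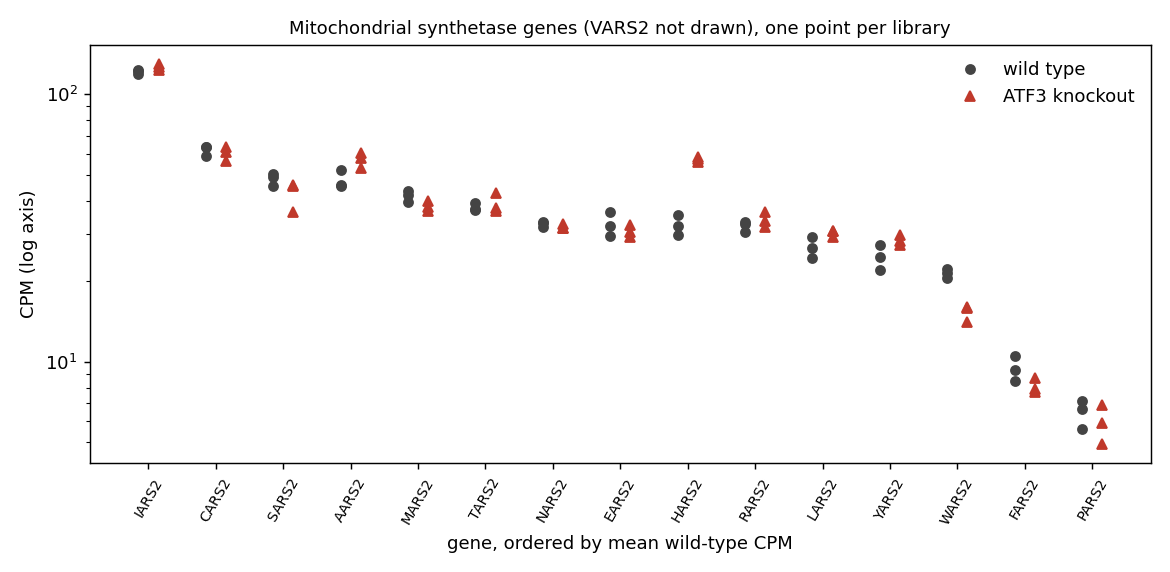
CPM (log axis) of 15 mitochondrial synthetase genes in each library, circles for wild type and triangles for ATF3 knockout, with VARS2 left out because 2 of its wild-type values are 0. HARS2 is higher in knockout (55.8 to 58.4 CPM against 29.7 to 35.5) and WARS2 lower, and 11 of the other 13 genes overlap between the groups.

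Levels of different genes are compared per length, as TPM. In MARS1 69.4% of the wild-type TPM lay on transcripts under 500 bases that held 1.71% of its reads, and in GARS1 54.9%, so levels are given over transcripts of 500 bases or more, a choice made after seeing the data. On that scale WARS1 was the highest in wild type at 480 ± 40.2 TPM (SD, n = 3), followed by LARS1 at 317 ± 7.10, TARS1 at 272 ± 15.3, MARS1 at 253 ± 8.84 and GARS1 at 239 ± 16.7. TARS1 and MARS1, and likewise MARS1 and GARS1, differed by less than the sum of their SDs. The highest mitochondrial gene, CARS2, stood at 36.4 ± 1.74 TPM, below 16 of the 20 cytosolic genes. CARS1, FARSB, VARS1 and TARS3 were the cytosolic genes under that level, and all reads of FARSB were assigned to a single transcript of 7006 bases.

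The cytosolic genes together held 3043, 2865 and 3137 TPM in wild type and 2306, 2040 and 2179 TPM in knockout on this scale, 72.1% of the wild-type mean. The mitochondrial genes together held 231, 237 and 237 TPM in wild type and 265, 261 and 247 TPM in knockout. The cytosolic sum was thus lower in every knockout library and the mitochondrial sum higher. The ratio of the sums was 12.8 ± 0.653 in wild type and 8.44 ± 0.546 in knockout. With all transcripts the cytosolic sum was 4038 ± 202 and 2781 ± 207 TPM, and the mitochondrial sum 262 ± 3.11 and 288 ± 14.6 TPM. No test was made of these sums.

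Cytosolic genes were also set against the mitochondrial gene for the same amino acid within a library. The value is a log2 ratio of reads per kilobase of effective length, which does not depend on how libraries are scaled to each other. The effective length was averaged over a gene's transcripts by TPM in each library, so the ratio depends on the estimated division of reads. GARS1, KARS1 and QARS1 had no such partner among the members, while EPRS1 was set against both EARS2 and PARS2. Of 18 such pairs, 13 had knockout ratios that all lay under the wild-type ratios, 1 had a higher ratio and 4 overlapped. The 13 include VARS1 to VARS2, whose reads are uncertain, and most of the others hold a cytosolic gene called lower. No share over other gene pairs was computed. For single genes, every wild-type library lay above every knockout library in 21.4% of all genes tested. Exact two-sided permutation tests of 3 against 3 libraries cannot go below p = 0.1, and the smallest value adjusted over the 18 pairs was 0.129. The ratio of NARS1 to NARS2 was 4.13, 4.03 and 4.07 in wild type and 3.52, 3.27 and 3.13 in knockout, a difference of -0.77. The ratio of AARS1 to AARS2 was 4.15, 4.04 and 4.07 in wild type and 3.51, 3.32 and 3.46 in knockout, a difference of -0.65. In both pairs the cytosolic gene fell and the mitochondrial gene was not called. The fitted count changes of NARS1 (-0.58) and NARS2 (-0.04) lay closer together than the difference in their ratio.

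The ratio of HARS1 to HARS2 was 1.78, 1.74 and 1.91 in wild type and 1.00, 1.19 and 1.07 in knockout, a difference of -0.73 that came with the rise of HARS2. For tryptophan, where both genes fell, the ratio of WARS1 to WARS2 was still lower, by 0.65, with 5.79, 5.69 and 5.83 in wild type and 5.22, 4.63 and 5.52 in knockout. FARSA to FARS2 was the exception in the other direction, at 3.69, 3.51 and 3.98 in wild type and 4.01, 4.08 and 4.27 in knockout. Overlap remained for TARS1 to TARS2, EPRS1 to EARS2, CARS1 to CARS2 and TARS3 to TARS2.

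**Figure D4:**
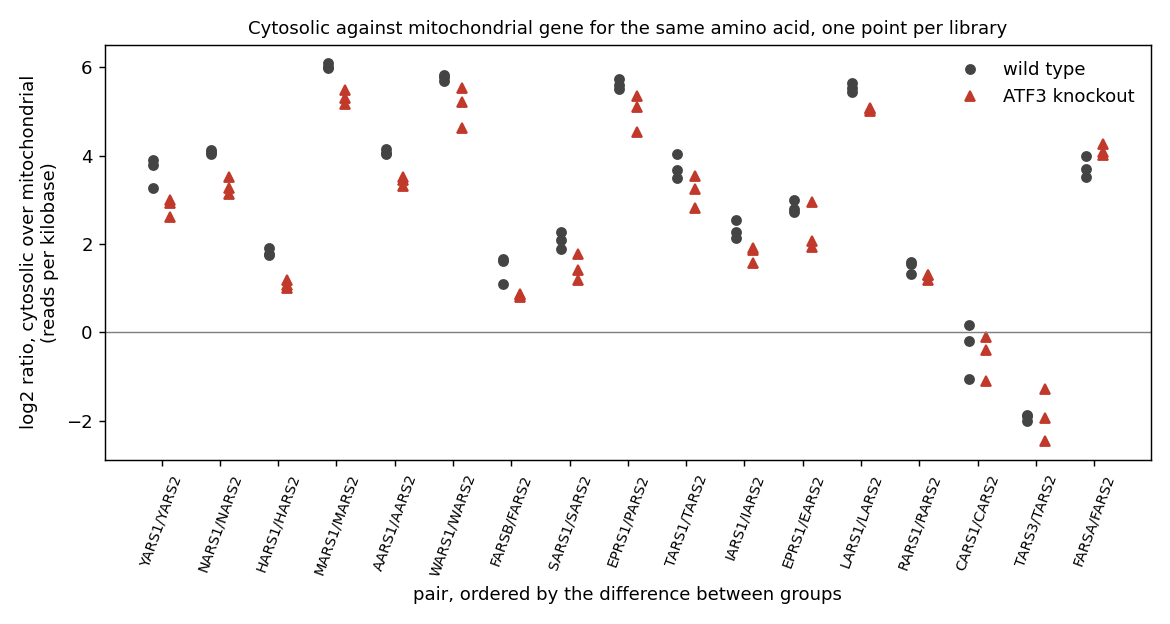
Log2 ratio of the cytosolic over the mitochondrial gene for the same amino acid (reads per kilobase, y axis) in each library for 17 pairs, ordered by the difference between the groups, with VARS1 to VARS2 left out. Ratios are lower in every knockout library (triangles) in 12 of the 17 pairs, for example 3.13 to 3.52 against 4.03 to 4.13 for NARS1 to NARS2.

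The mRNAs of proteins that work with the synthetases fell in part as well. The counts that follow stand beside 9.72% of all genes tested called lower and 11.4% called higher. The lists were chosen with earlier results of these data known. Of 13 listed partners, all tested, 8 fell and 0 rose, with a median log2 fold change of -0.38. EEF1E1, a scaffold of the multisynthetase complex, went from 53.0 ± 8.55 to 27.1 ± 1.38 CPM, a log2 fold change of -0.97 (SE 0.13, edgeR adjusted p = 0.0087), and the scaffold AIMP1 went from 117 ± 10.2 to 75.5 ± 5.98 CPM (-0.63, SE 0.09). The others that fell were the scaffold gene AIMP2, PSTK, SEPSECS, the proofreading genes AARSD1 and DTD2, and QRSL1, a subunit of the mitochondrial amidotransferase that makes glutaminyl-tRNA. The other amidotransferase genes GATB and GATC did not pass.

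Of 21 genes of transfer RNA maturation and export, 5 fell and 3 rose, with a median of 0.00, where 9.72% of all genes fell and 11.4% rose. TSEN15, a subunit of the splicing endonuclease for transfer RNA, fell by 0.90 (SE 0.12), the exporter gene XPOT fell by 0.39 (SE 0.06), and POP1, a subunit of ribonuclease P, rose by 0.65 (SE 0.12). Of 9 cytosolic elongation and termination factors 3 fell and 0 rose (median -0.23), among them ABCE1, a ribosome recycling factor, by 0.46 (SE 0.10), the translocase gene EEF2, by 0.36 (SE 0.08), and EEF1B2, a nucleotide exchange factor, by 0.43 (SE 0.12). Of 11 mitochondrial translation factors 3 fell and 0 rose (median -0.12), namely the elongation factor genes GUF1, by 0.47 (SE 0.07), and GFM1, by 0.40 (SE 0.07), and the initiation factor gene MTIF2, by 0.38 (SE 0.07).

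Of 12 regulators and sentinel genes of the amino acid response, 11 fell and 0 rose (median -1.16), and EIF2AK4, the kinase that senses uncharged transfer RNA, did not pass (-0.01, SE 0.21). The 3 with the smallest p were ATF5, a transcription factor, which fell by 2.87 (SE 0.23), ASNS, asparagine synthetase, which fell by 1.09 (SE 0.10), and SESN2, a leucine sensor, which fell by 1.40 (SE 0.19). ATF5 had 177, 107 and 185 CPM in wild type and 22.8, 17.6 and 23.8 CPM in knockout. ASNS went from 320.1, 300.4 and 317 CPM to 153, 125 and 162 CPM, and SESN2 from 151, 106 and 157 CPM to 60.04, 41.6 and 54.9 CPM. In each of the 11 genes that fell, wild-type replicate 2 was the lowest wild-type library and knockout replicate 2 the lowest knockout library. ATF4, chosen after its values were seen, fell by 0.54 (SE 0.10, edgeR adjusted p = 0.0144), a size within the range of the cytosolic synthetases.

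**Figure D5:**
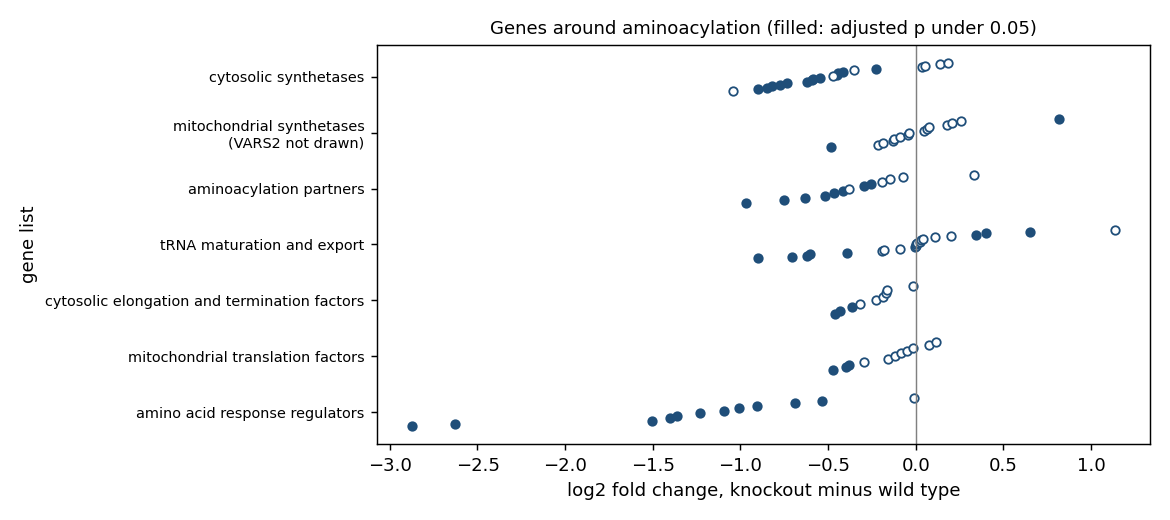
Log2 fold change (knockout minus wild type, x axis) of each tested gene in the synthetase classes and in the lists around them (y axis), filled where the edgeR adjusted p was under 0.05, with genes of a list spread vertically by rank. The called cytosolic synthetases lie between -0.90 and -0.22, and the amino acid response genes reach -2.87 (ATF5).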

How the data were processed

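Polyadenylated RNA of 6 EoL-1 libraries, 3 wild type and 3 ATF3 knockout, was sequenced with the Illumina Stranded mRNA Prep kit, per the labels' protocols. The authors deposited a transcript table for each library with estimated counts of reads (not whole numbers), TPM and effective lengths, per the file headers. The submitters' processing notes list FastQC 0.11.9, Salmon 1.6.0 and hg38. For the annotation release and the library type used in quantification, nothing is given in the sources used here, so genes overlapping on opposite strands may share reads. The deposited TPM sum to the same total in each library, and the deposited effective lengths, in bases, were identical in all 6.

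Transcripts were joined to GENCODE 29 genes by identifier without version (94.1% matched). Reads of unmatched transcripts (3.59 to 3.82%) were left out. Counts were summed per gene, rounded and tested with edgeR 4.0.16 (quasi-likelihood, group only, TMM, filterByExpr with a minimum of 10, R 4.3.3), with Benjamini-Hochberg adjustment over 13131 genes at 0.05 and 4 residual degrees of freedom. The alternatives, run with edgeR, DESeq2 1.42.0 or limma 3.58.1, are given in the closing section. The members, lists and tests were chosen with earlier results of these data known. Values in every library are given for up to 8 called members per class with the largest change, the most abundant and the least changed member, KARS1, GARS1 and EPRS1, and for each list up to 3 called genes with the smallest p; other genes were chosen after their values were seen. The pipeline was tested on simulated data. In the pair ratios 0.5 was added where a library was at 0.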

Additional observations from a re-analysis of the deposited data

How the results depend on the processing

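The 13 cytosolic calls were made with RLE or upper-quartile factors, without a low-count filter, with DESeq2, limma-voom, protein-coding transcripts alone or the GC trend removed. This last setting, which gave 1231 higher and 1566 lower over all genes, and the limit of 500 bases were added with the data in view. The effective length offset left 11 cytosolic genes lower and 0 mitochondrial genes lower, over all genes 722 higher and 661 lower against 1494 and 1276, and a mitochondrial median of 0.0429. Without a library, the cytosolic genes called lower ranged from 0 to 14, the mitochondrial genes called lower from 0 to 1 and higher from 0 to 2, all genes called lower from 0 to 1388 and higher from 0 to 1370. The cytosolic median then ranged from -0.61 to -0.44 and the mitochondrial from -0.0356 to 0.0322. The pairs with a lower ratio in every knockout library numbered 13 or 14 in all alternatives run. Scaling between libraries does not enter the ratio, and leaving a library out cannot make separate groups overlap. In such settings the count could not fall, so it is no test of stability there.

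Directions that changed were all of uncalled genes. With the GC trend removed HARS1 was at -0.053 and TARS2 at -0.0445. With the effective length offset RARS1 was at -0.0373, TARS3 at 0.0526, CARS2 at 0.0261 and NARS2 at 0.126. Without a library CARS2 ranged from -0.0835 to 0.0023 and TARS2 from -0.033 to 0.0887. The pair difference of TARS3 to TARS2 was -0.46 with transcripts of 500 bases or more. Without a library it ranged from -0.27 to 0.32, and that of CARS1 to CARS2 from -0.52 to 0.11. The cause was not tested.

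Replicate numbers are shared by the groups. The deviations of same-numbered libraries correlated at -0.0924, 0.106 and 0.196, and not every library correlated best with its own number. These correlations cover all genes and cannot exclude an effect of the replicate on some genes. In the 11 amino acid response genes that fell, replicate 2 was the lowest library of both groups. The replicate block fit called 12 cytosolic genes lower, losing KARS1, and 1225 higher and 1093 lower over all genes. The members with the fewest reads were VARS2, PARS2, FARS2 and TARS3, each with at most 333 in a library.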

Other observations

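The estimated division of reads between CARS1 transcripts differed from library to library within a group. ENST00000380525.8 had wild-type reads of 581, 0 and 440 and knockout reads of 0.003, 553 and 910, and ENST00000529772.5 had 610, 0 and 538 against 0, 637 and 631. Wild-type replicate 2 and knockout replicate 1 were thus at or near 0 for both protein-coding transcripts, while ENST00000278224.13 was highest in those libraries, at 754 and 649 reads. Wild-type replicate 2 was also the library in which the sum over CARS1 transcripts was lowest.

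For VARS1, the transcript with most reads, ENST00000375663.8, had wild-type reads of 575, 0 and 0 and knockout reads of 0, 210 and 0. It was thus at 0 in 4 of the 6 libraries.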
